A study of Homo sapiens with 60 samples.

Results

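A set of 10 genes around the epidermal growth factor receptor and the transcriptional coactivator YAP was followed in HT29 cells, an established line from a human colorectal adenocarcinoma. They were 4 ligands of the receptor (EREG, AREG, TGFA and HBEGF), the receptor itself (EGFR) and 5 target genes of YAP and its partner TEAD (CCN1, CCN2, ANKRD1, AMOTL2 and AJUBA). The 10 members were taken by symbol from the 60675 Ensembl gene rows of a table of RNA sequencing counts, and all 10 had a row. They were also all among the 16890 genes kept by a filter on low counts. The cells had been treated for 24 h before the RNA was taken. Yijin-tang (3 libraries a dose) and Soshiho-tang (2 libraries a dose), which are decoctions of several herbs, were water extracts. The 6 single herbs were ethanol extracts: Zizyphi Semen, Longan Arillus, Schisandrae Fructus and Liriopis seu Ophiopogonis Tuber (Liriopis for short) had 3 libraries a dose, and Polygalae Radix and Aucklandiae Radix had 1. Low, medium and high doses were 20, 100 and 500 µg/mL, but 15.2, 76 and 380 µg/mL for Polygalae Radix and 14.8, 74 and 370 µg/mL for Aucklandiae Radix. The 3 reference libraries came from cells given the vehicle DMSO, at 0.1% per the sample labels and at 2% per the series description, a difference that could not be settled. The labels give no DMSO share for the extracts, and HT29 is 1 established line, so no other genetic background was sampled.

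EGFR is a receptor tyrosine kinase of epithelial cells. Its ligands are made as membrane-anchored precursors and are cut free by metalloproteases, after which they act on the same cell or its neighbours and switch on the RAS and MAP kinase cascade. In colon cancer cells EREG and AREG are often made together and are known as markers of tumours that depend on EGFR. YAP is held in the cytoplasm by the kinases of the Hippo pathway. When it reaches the nucleus it binds TEAD factors and raises genes such as CCN1 and CCN2, which encode secreted matrix proteins, and ANKRD1, AMOTL2 and AJUBA. AREG is itself a known YAP target in breast epithelial cells.

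Library totals ran from 18161717 to 35128954 expected counts, with a median of 25406509. Levels are given as CPM, the usual unit of counts divided by the scaled library total. The first part of the library names places the vehicle in 1 set (C1) and the extracts in 4 others, of which set 8 holds both decoctions, 9 Liriopis and Schisandrae, 10 Longan and Zizyphi, and 11 the other 2 herbs. The labels do not say what a set is. Since the vehicle has a set of its own, an effect of an extract and one of its set cannot be told apart wherever the vehicle is used. Colon epithelium markers had counts in every group, with 10 of 10 detected and summed levels of 8122 CPM or more. Fibroblast markers summed to 4.12 CPM or less in every library. There were 2 libraries that stood apart. In Yijin-tang low dose replicate 2, genes for ribosomal proteins took 11.4% of the counts, against at most 5.84% elsewhere, and the longest genes (6767 bases of exon or more) lay 0.46 below the vehicle in the median on the log2 scale while the shortest (up to 2366 bases) lay 0.55 above it. In Soshiho-tang high dose replicate 3, 10 blood and leukocyte markers summed to 36.8 CPM, against 2.98 CPM in the other library of that group and at most 5.49 CPM elsewhere. Members and named list genes with an adjusted p under 0.05 in groups that hold either library are given with and without it or both. Counts and medians of gene lists, and several members that did not pass, are given with all libraries only.

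Promoter windows from RefSeq (GRCh38.p14) were read for 9 of the 10 members, all but CCN1, from 250 to 11 bases before the annotated start. They were searched on both strands for GGAATG, the core bound by TEAD factors, for TGANTCA, the core of AP-1, and for TGACGTCA, the cyclic AMP response element. CCN2 and ANKRD1 are shown because they hold more than 1 TEAD core. EREG and AREG are shown because they are the ligands that moved most between the low and high Soshiho-tang doses. Capitals mark every motif match.
CCN2: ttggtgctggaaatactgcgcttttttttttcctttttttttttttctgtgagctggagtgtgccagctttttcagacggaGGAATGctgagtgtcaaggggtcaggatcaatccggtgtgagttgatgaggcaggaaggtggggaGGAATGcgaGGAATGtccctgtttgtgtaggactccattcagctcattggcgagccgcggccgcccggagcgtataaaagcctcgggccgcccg
ANKRD1: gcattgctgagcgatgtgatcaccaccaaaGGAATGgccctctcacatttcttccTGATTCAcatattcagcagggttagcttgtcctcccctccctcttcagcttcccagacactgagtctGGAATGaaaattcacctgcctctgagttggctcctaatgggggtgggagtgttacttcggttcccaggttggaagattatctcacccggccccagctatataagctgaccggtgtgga
EREG: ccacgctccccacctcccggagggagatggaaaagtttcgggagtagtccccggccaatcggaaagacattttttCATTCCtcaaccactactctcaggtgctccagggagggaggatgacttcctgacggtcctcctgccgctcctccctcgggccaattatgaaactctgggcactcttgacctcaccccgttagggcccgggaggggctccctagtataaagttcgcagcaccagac
AREG: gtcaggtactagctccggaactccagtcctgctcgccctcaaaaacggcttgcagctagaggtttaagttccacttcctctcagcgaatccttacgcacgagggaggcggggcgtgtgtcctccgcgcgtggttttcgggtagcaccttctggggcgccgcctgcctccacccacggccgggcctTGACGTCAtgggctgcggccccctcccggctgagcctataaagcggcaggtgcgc
The CCN2 window (chr6:131951383-131951622, minus strand) held 3 copies of GGAATG. The ANKRD1 window (chr10:90921098-90921337, minus strand) held 2 copies and 1 TGATTCA. The EREG window (chr4:74364895-74365134, plus strand) held 1 copy on the opposite strand, written CATTCC. The AREG window (chr4:74444886-74445125, plus strand) held no TEAD core and 1 TGACGTCA. Of 35116 windows of this length over all genes in the table, 11.5% held GGAATG or its complement, 6.43% TGANTCA and 1.57% TGACGTCA. Among the windows not shown, the second ones of EGFR, AMOTL2 and AJUBA each held 1 GGAATG or its complement, and that of EGFR 2 matches of TGANTCA. A match is a description of these letters and no measurement of binding. EREG and AREG lie beside each other, at chr4:74365143-74388751 (ENSG00000124882) and chr4:74445134-74455009 (ENSG00000109321) in GENCODE release 29 on GRCh38.

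Per kilobase of exon, mean levels over the 60 libraries were highest for AREG (30.8 CPM per kb), followed by EREG (16.3), TGFA (14.9), EGFR (14.4), AMOTL2 (10.5) and AJUBA (7.07 CPM per kb). HBEGF was lower, at 3.18 CPM per kb. The most cited YAP targets were scarce in these cells, with 1.96 CPM per kb for CCN2 and 1.70 for CCN1. ANKRD1 was close to the floor of detection, at 0.114 CPM per kb and with between 1 and 13 counts in a library. It passed the filter on its best libraries, and its values carry little weight below.

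**Figure D1:**
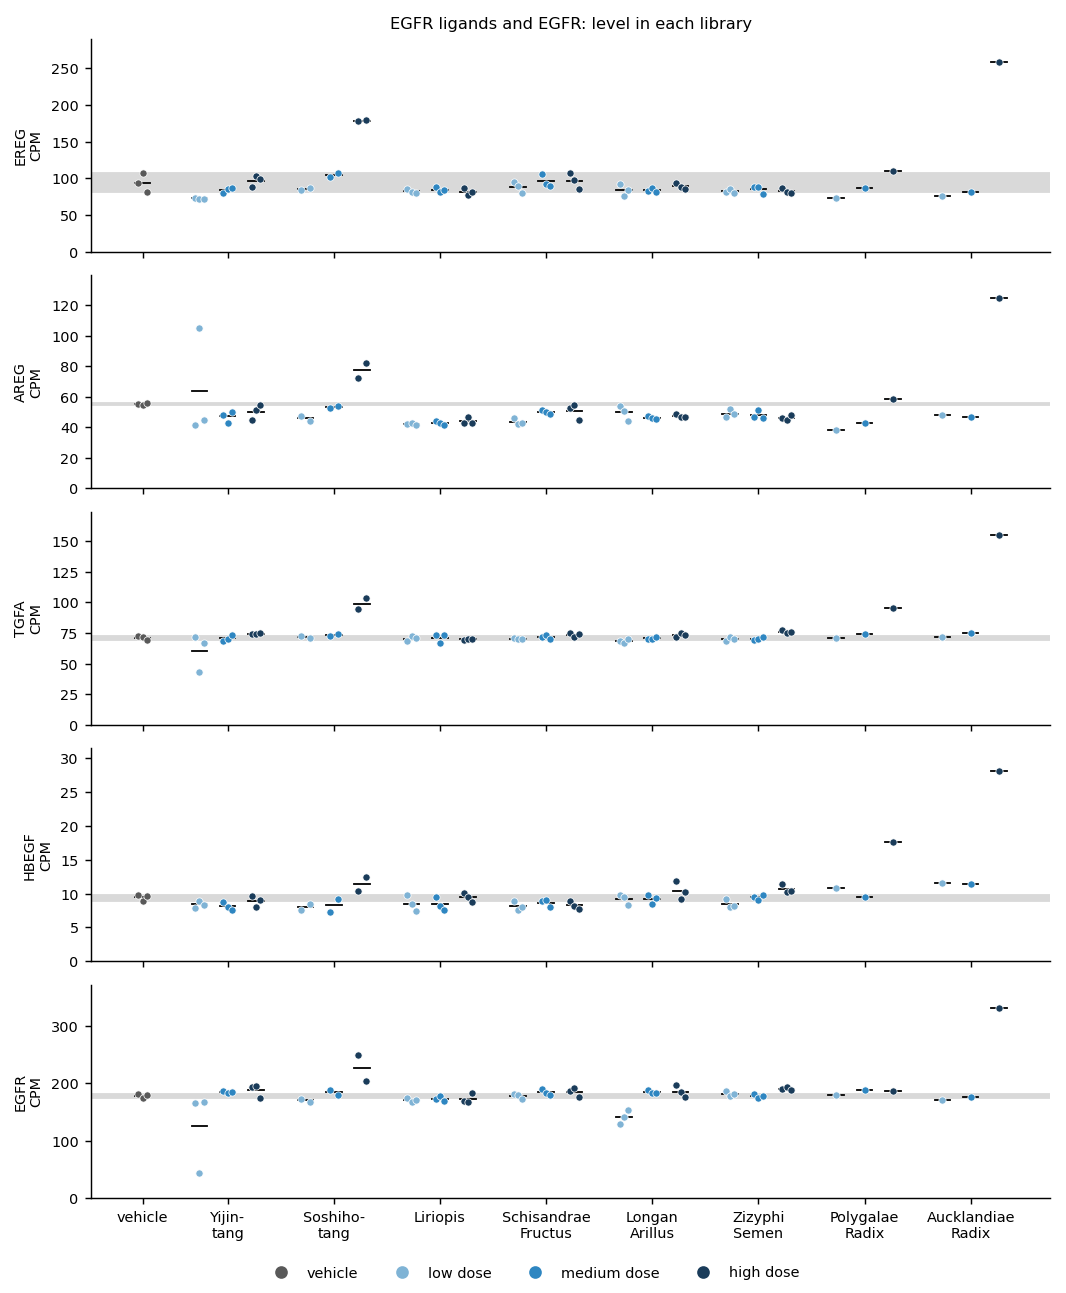
Level of the 4 EGFR ligands and of EGFR in CPM (y axes, linear from 0) in each of the 60 libraries, by extract and dose; points are libraries, short lines are group means, and the grey band spans the 3 vehicle libraries. EREG stands highest in the Aucklandiae Radix high dose (258 CPM) and in both Soshiho-tang high dose libraries (177 and 179 CPM), and Yijin-tang low dose replicate 2 stands apart for AREG, TGFA and EGFR.

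Of the 4 ligands, EREG and TGFA rose with Soshiho-tang at its high dose. EREG, the ligand epiregulin, had 177 and 179 CPM in the Soshiho-tang high dose libraries, against 93.2, 107 and 80.9 CPM in the vehicle libraries. The groups were far apart, and EREG was 0.93 ± 0.088 higher on the log2 scale (± is the standard error throughout; edgeR's quasi-likelihood test, adjusted p = 1.9e-10). TGFA, transforming growth factor alpha, had 94.2 and 104 CPM with Soshiho-tang, against 72.3, 71.7 and 69.4 CPM in the vehicle, without overlap (0.48 ± 0.087, adjusted p = 0.00015). AREG, amphiregulin, had 72.5 and 82.2 CPM, against 55.6, 54.9 and 55.6 CPM. Its groups did not overlap either, but the difference of 0.48 ± 0.17 missed the threshold of 0.05 with an adjusted p of 0.080. The share of all genes whose groups do not overlap was not counted. Here and below, with 2 or 3 libraries a group, a lack of overlap is by itself no difference. HBEGF, the heparin-binding ligand, had 10.3 and 12.5 CPM, against 9.85, 8.94 and 9.70 CPM (0.27 ± 0.11, adjusted p = 0.16). In all, 2 members were called higher and 1 lower, where 7.93% of the 16890 genes were called in either direction. The median over the 4 ligands was 0.48 on the log2 scale, against -0.00035 over all genes tested.

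Dose steps of EREG were ordered within Soshiho-tang. The low dose gave 84.2 and 87.4 CPM, the medium dose 102 and 107 CPM and the high dose 177 and 179 CPM, so no 2 doses overlapped. Between high and low dose, which come from 1 library set, all 4 ligands were called higher and CCN2 lower, where 6.29% of all genes were called. EREG was 1.05 ± 0.099 higher at the high dose (adjusted p = 2.3e-10), AREG 0.76 ± 0.19 (0.0098), HBEGF 0.52 ± 0.13 (0.0063) and TGFA 0.47 ± 0.096 (0.0012). The AREG levels behind this were 72.5 and 82.2 CPM at the high dose and 47.6 and 44.0 CPM at the low dose. With 2 libraries a group, EREG and TGFA stayed called whichever library was left out. The AREG call was lost without high dose replicate 3 (0.67, adjusted p = 0.13) or without either low dose library (adjusted p = 0.057 without replicate 2 and 0.13 without replicate 3). The HBEGF call was lost without high dose replicate 3 (0.38, adjusted p = 0.24) or low dose replicate 2 (0.45, adjusted p = 0.12), and in a fit of these 2 groups alone (0.12). In the fit without both libraries that stood apart, where 7.95% of genes were called, EREG was 1.04, AREG 0.66, TGFA 0.39 and EGFR 0.55 higher and all 4 were called, while HBEGF (0.37, adjusted p = 0.14) and CCN2 (-0.67, 0.10) were not.

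Blood markers were high in 1 of the 2 Soshiho-tang high dose libraries. Other marker lists moved in that group too. Endothelium markers summed to 2.84 and 3.55 CPM there, against 1.94 to 2.43 CPM in the vehicle, and PECAM1 was called higher (0.79, adjusted p = 0.034), but not without both libraries that stood apart (0.53, 0.30). Of 10 colon epithelium markers, KRT20 was called higher (0.33, adjusted p = 2.6e-05), and VIL1 (-0.35, 3.0e-05) and GPA33 (-0.56, 0.030) were called lower. Without both libraries KRT20 (0.38) and VIL1 (-0.39) stayed called and GPA33 did not (-0.51, adjusted p = 0.14). The part of these markers in the member levels was not tested. EREG was as high in replicate 2, whose blood markers summed to 2.98 CPM, as in replicate 3, at 177 and 179 CPM. EGFR was higher in replicate 2 (249 CPM) than in replicate 3 (204 CPM), while AREG, TGFA and HBEGF were higher in replicate 3. In bulk RNA a change in the cells present and a change of RNA per cell cannot be told apart. In a fit without both libraries that stood apart, where 12.7% of genes were called in this comparison, 5 members were called between the remaining Soshiho-tang high dose library and the vehicle. EREG was then 0.92 ± 0.10 higher (adjusted p = 8.2e-09), AREG 0.38 ± 0.089 (0.0024), TGFA 0.40 ± 0.047 (2.3e-08) and EGFR 0.48 ± 0.060 (1.0e-07), and CCN2 was 0.94 ± 0.24 lower (0.0050). HBEGF was not called in that fit. A group of 1 library is there assumed to vary like the other groups.

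Yijin-tang, the other decoction, gave a smaller range. EREG had 72.2 to 74.0 CPM at its low dose, 80.7 to 87.2 CPM at its medium dose and 88.3 to 103 CPM at its high dose, so that here too the doses did not overlap, but the high dose lay across the vehicle libraries. Against the vehicle at the high dose edgeR and DESeq2 called none of the 10 members, with 2 at an unadjusted p under 0.05 in edgeR, where 1.05% of genes were called. EREG was 0.40 ± 0.081 higher at the Yijin-tang high dose compared with its low dose (adjusted p = 0.0031, where 21.0% of genes were called; 0.76 in a fit of these 2 groups alone) and 0.36 ± 0.081 lower at the low dose than in the vehicle (adjusted p = 0.0078, where 12.1% were called). EREG stayed called in these comparisons in the fit without both libraries that stood apart, at 0.40 between doses (adjusted p = 0.018, where 0.675% of genes were called) and -0.35 against the vehicle (0.024, where 2.05% were). The call against the vehicle was lost without vehicle replicate 2 (0.26 lower, adjusted p = 0.053). TGFA and EGFR were also called higher at the Yijin-tang high than low dose, by 0.29 ± 0.080 and 0.58 ± 0.19, but these calls rested on low dose replicate 2. Without it the differences were 0.10 for TGFA (adjusted p = 0.35) and 0.17 for EGFR (0.21). The EGFR call, at an adjusted p of 0.032, was also lost when any 1 of the 3 high dose libraries was left out, at adjusted p from 0.051 to 0.087.

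AREG was the ligand furthest out in that library. It had 41.4, 105 and 44.9 CPM in Yijin-tang low dose replicates 1, 2 and 3, while EGFR had 165, 43.0 and 168 CPM and TGFA 71.6, 43.4 and 66.8 CPM. In replicate 2, AREG, which has 1648 bases of exon, was high. EGFR, with 12521 bases, and TGFA, with 4963 bases, were low. The part of exon length in these levels was not tested. With all libraries AREG was 0.20 ± 0.16 higher at the Yijin-tang low dose than in the vehicle, and without replicate 2 it was 0.36 lower (adjusted p = 0.0073). EREG and HBEGF in replicate 2, at 72.2 and 8.97 CPM, lay near the other low dose libraries.

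Set against each other at the high dose, Yijin-tang had lower levels than Soshiho-tang of 3 of the 4 ligands. EREG was 0.88 ± 0.088 lower with Yijin-tang (adjusted p = 1.6e-09), AREG 0.62 ± 0.17 lower (0.028) and TGFA 0.42 ± 0.087 lower (0.0019), where 3.72% of genes were called. HBEGF, at a difference of -0.36 ± 0.11, was not called (0.078). EREG had 88.3, 103 and 98.5 CPM with Yijin-tang, against 177 and 179 CPM with Soshiho-tang. The EREG call held whichever library was left out. TGFA lost its call without Soshiho-tang replicate 3 (0.35 lower, adjusted p = 0.11). AREG lost it when any of 4 of the 5 libraries was left out, namely Yijin-tang replicate 1 or 2 or either Soshiho-tang library (0.54 to 0.71 lower, adjusted p from 0.058 to 0.32). In the fit without both libraries that stood apart, EREG, AREG, TGFA and EGFR were called lower with Yijin-tang, by 0.87, 0.53, 0.34 and 0.41, where 5.13% of genes were called. The change between high and low dose also differed between the decoctions, by -0.65 ± 0.13 for EREG (Yijin-tang minus Soshiho-tang, adjusted p = 0.0017) and by -1.09 ± 0.25 for AREG (0.0087), where 4.38% of genes were called. Both calls were lost in a fit of these 4 groups alone, with adjusted p of 0.80 for EREG and 0.85 for AREG. The AREG value rests in part on Yijin-tang low dose replicate 2, without which it was -0.54. Without both libraries that stood apart the differences were -0.64 for EREG (adjusted p = 0.0065) and -0.44 for AREG (0.048), where 1.85% of genes were called. Its call was lost without Soshiho-tang high dose replicate 3 (-1.01, adjusted p = 0.074) or low dose replicate 3 (-1.04, adjusted p = 0.066).

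**Figure D2:**
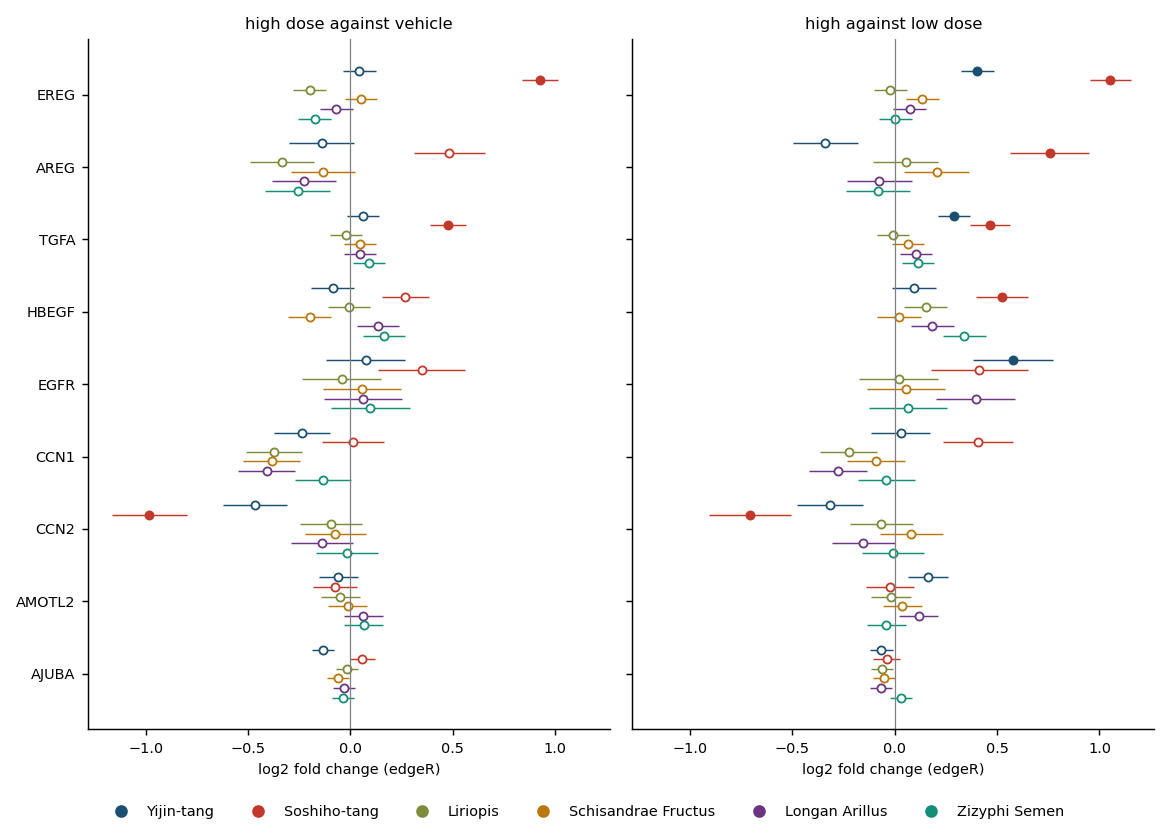
Log2 fold change (x axes) of 9 members in the 6 extracts with 2 or 3 libraries a dose, for the high dose against the vehicle (left) and the high against the low dose (right); bars are standard errors, filled points have an adjusted p under 0.05 in edgeR's quasi-likelihood test, and ANKRD1 is left out for its low counts. Soshiho-tang stands to the right of the other extracts for EREG (0.93 against the vehicle and 1.05 against the low dose) and to the left for CCN2 (-0.98 and -0.71).

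EGFR, the receptor, ran from 43.0 to 332 CPM over the 60 libraries around a median of 180 CPM. With Soshiho-tang at the high dose it had 249 and 204 CPM, against 181, 174 and 179 CPM in the vehicle, and no overlap, but the difference of 0.35 ± 0.21 was not called with all libraries (adjusted p = 0.41). Longan Arillus at its low dose gave the other departure. There EGFR had 129, 140 and 153 CPM, against 181, 174 and 179 CPM in the vehicle. Longan Arillus at its medium dose had 188, 183 and 182 CPM and at its high dose 196, 184 and 176 CPM, so the low dose stood below every other Longan Arillus library. With all libraries the difference of -0.34 ± 0.19 was not called (adjusted p = 0.72, where 0.107% of genes were called). In the fit without both libraries that stood apart, neither of which is a Longan Arillus or vehicle library, the spread between libraries fell to a biological coefficient of variation of 4.76%, against 9.71% with all. EGFR was then 0.33 ± 0.044 lower at the Longan Arillus low dose than in the vehicle (adjusted p = 1.1e-05, where 4.80% of genes were called) and 0.40 ± 0.044 higher at its high dose compared with its low dose (1.5e-07, where 5.70% were called). The change from low to high dose differed from that of Zizyphi Semen, of the same library set, by 0.33 ± 0.062 (adjusted p = 0.0026, where 1.26% were called). In the 3 Longan Arillus low dose libraries the median of the longest genes against the vehicle minus that of the shortest was -0.091, -0.071 and -0.031, and the part of this in the EGFR result was not tested. EGFR-AS1, on the opposite strand, had a median of 12.1 counts, against 4391 for EGFR, and the sources do not state whether the counting used strand.

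**Figure D3:**
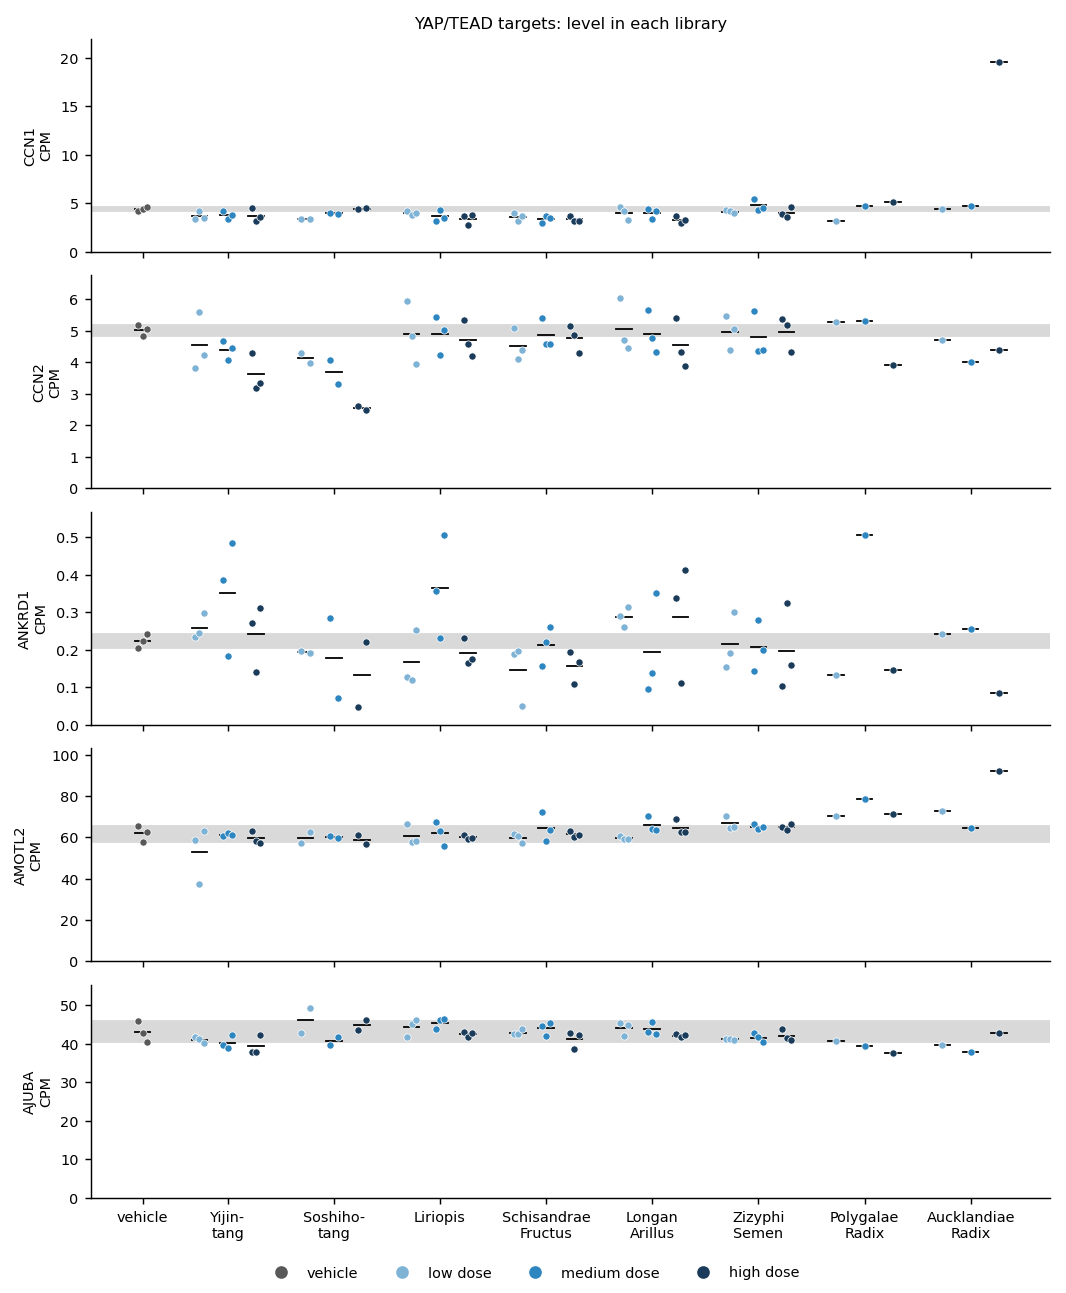
Level of the 5 YAP/TEAD targets in CPM (y axes, linear from 0) in each of the 60 libraries, by extract and dose; points are libraries, short lines are group means, and the grey band spans the 3 vehicle libraries. CCN1 stands at 19.6 CPM in the Aucklandiae Radix high dose and at 5.49 CPM or less elsewhere, CCN2 is lowest with Soshiho-tang at the high dose, and ANKRD1 stays at 0.506 CPM or less.

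Among the YAP targets only CCN2 was called by edgeR with all libraries in the comparisons made here. DESeq2 also called AJUBA, lower with Yijin-tang than with Soshiho-tang at the high dose (-0.19, adjusted p = 0.037), where edgeR gave an adjusted p of 0.068. CCN2, a secreted matrix protein also known as connective tissue growth factor (ENSG00000118523, chr6:131948176-131951373), fell with Soshiho-tang. It had 2.61 and 2.47 CPM at the high dose, against 5.16, 4.83 and 5.04 CPM in the vehicle, and those 2 libraries were the lowest of all 60. The difference was -0.98 ± 0.18 (adjusted p = 0.00020) and stayed called whichever library was left out, at adjusted p up to 0.020. Its Soshiho-tang levels were 4.28 and 3.99 CPM at the low dose, 4.07 and 3.32 CPM at the medium dose and 2.61 and 2.47 CPM at the high dose. The high dose was 0.71 ± 0.20 lower than the low dose (adjusted p = 0.024), a call lost when any 1 of the 4 libraries was left out (0.65 to 0.75 lower, adjusted p from 0.072 to 0.23) and in a fit of these 2 groups alone (0.095). With Yijin-tang at the high dose CCN2 had 4.30, 3.19 and 3.35 CPM, all below the vehicle, and the difference of -0.46 ± 0.16 was not called with all libraries (adjusted p = 0.17). In the fit without both libraries that stood apart it was called, at -0.46 ± 0.15 (adjusted p = 0.046, where 7.46% of genes were called). In the 4 ethanol extracts with 3 libraries a dose, CCN2 at the high dose lay between 3.89 and 5.40 CPM.

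None of the other 4 targets was called with Soshiho-tang at the high dose against the vehicle, with none at an unadjusted p under 0.05 in edgeR and none called by DESeq2. CCN1, another secreted member of the CCN family, had 4.38 and 4.56 CPM in the Soshiho-tang high dose libraries, against 4.21, 4.45 and 4.66 CPM in the vehicle, a difference of 0.01 with a 95% interval from -0.28 to 0.31. AMOTL2, a scaffold protein at cell junctions that binds YAP, had 61.3 and 56.7 CPM, against 65.5, 57.8 and 62.9 CPM. AJUBA, a LIM domain protein that binds the Hippo kinase LATS, had 43.6 and 46.1 CPM, against 45.9, 42.8 and 40.5 CPM. For both the groups overlapped. The AJUBA gene overlaps AL132780.3 on its own strand, which had a median of 51.8 counts. Whether their exons overlap was not checked, so the split of reads between the 2 may be uncertain. ANKRD1, a nuclear ankyrin repeat protein, had 0.047 and 0.222 CPM with Soshiho-tang and 0.204 to 0.243 CPM in the vehicle, which is too few counts to show a difference. The median over the 5 targets was -0.075 in this comparison, against -0.00035 over all genes tested.

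The 4 ethanol extracts with 3 libraries a dose left all 10 members uncalled with all libraries, in the 20 comparisons with the vehicle, between high and low doses and with each other. Of these 200 tests edgeR called 0, with 17 at an unadjusted p under 0.05, and DESeq2 called 0, where 0.173% of all gene tests were called by edgeR. The share of all genes called against the vehicle at the high dose was 0.450% for Liriopis, 0.693% for Schisandrae Fructus, 0.0829% for Longan Arillus and 0.160% for Zizyphi Semen. EREG at those high doses had 77.1 to 87.0 CPM with Liriopis, 85.7 to 107 with Schisandrae Fructus, 85.6 to 93.5 with Longan Arillus and 80.3 to 86.9 CPM with Zizyphi Semen, against 80.9 to 107 CPM in the vehicle. HBEGF was above the vehicle in all 3 Zizyphi Semen high dose libraries, with 11.4, 10.2 and 10.4 CPM, against 9.85, 8.94 and 9.70 CPM, and the difference of 0.16 ± 0.10 was not called.

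AREG showed a narrow band in the vehicle and lower levels in most extract libraries. The vehicle had 55.6, 54.9 and 55.6 CPM. Of the 57 extract libraries, 52 lay below that band and 5 above it. The 5 were both Soshiho-tang high dose libraries, the high doses of Aucklandiae Radix (125 CPM) and Polygalae Radix (58.4 CPM), and Yijin-tang low dose replicate 2. The band is narrower than the counting error of 1 library. In the Polygalae Radix high dose the 95% counting interval ran from 55.6 to 61.3 CPM. Libraries at 54.3 CPM counted as below the band, so a place outside it is by itself no difference. The same count was not made over all genes. In the fit without both libraries that stood apart, AREG was called lower than the vehicle at all 3 Liriopis doses, by 0.34 to 0.39, and in 6 of the other 15 extract doses with 2 or 3 libraries, by 0.23 to 0.36. These were Zizyphi Semen at the high dose, Yijin-tang at the medium and low doses, Longan Arillus at the medium dose, and Soshiho-tang and Schisandrae Fructus at the low dose. All these comparisons share the same 3 vehicle libraries, which form a library set of their own. Over all 18 extract doses with 2 or 3 libraries, 2.24% of gene tests were called lower in that fit. With all libraries AREG was called lower at none of the 18, with 4 at an unadjusted p under 0.05 in edgeR, and DESeq2 called none either.

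**Figure D4:**
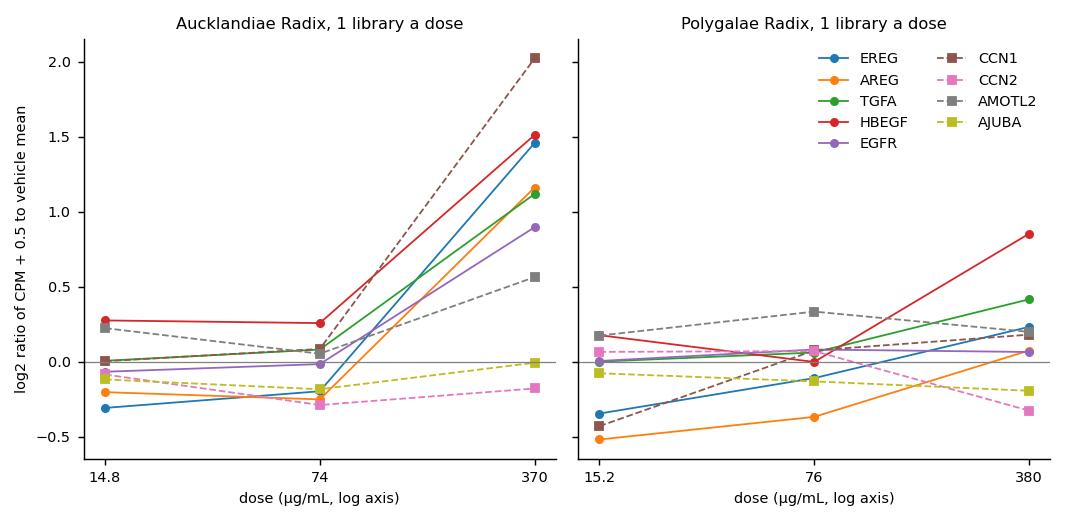
Log2 ratio of CPM + 0.5 to the vehicle mean (y axis) by dose in µg/mL (log axis) for Aucklandiae Radix and Polygalae Radix, with 1 library a dose; circles are the EGFR ligands and EGFR, squares the YAP targets other than ANKRD1, and no error can be shown. At the Aucklandiae Radix high dose CCN1 stands at 2.02, HBEGF at 1.51 and EREG at 1.46, while CCN2 and AJUBA lie at or below 0.

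Aucklandiae Radix at its high dose of 370 µg/mL gave the highest level of 7 members over the 60 libraries, in 1 library that has no replicate. All 4 ligands were at least 2-fold above the vehicle mean on the scale of CPM + 0.5. EREG had 258 CPM (2.75-fold, 95% counting interval of the level 252 to 265 CPM), against 80.9 to 107 CPM in the vehicle. AREG had 125 CPM (2.24-fold), TGFA 155 CPM (2.17-fold) and HBEGF 28.0 CPM (2.85-fold). EGFR had 332 CPM, against 174 to 181 CPM in the vehicle, and was 1.86-fold higher. CCN1 had 19.6 CPM (4.06-fold, 17.8 to 21.4 CPM), against 4.21 to 4.66 CPM, the largest ratio of the members. AMOTL2 was 1.48-fold higher, at 92.1 CPM. CCN2, at 4.37 CPM, was just below the vehicle, and AJUBA, at 42.9 CPM, within it. In all, 5 members were at least 2-fold higher and none was at least 2-fold lower, where 5.42% of genes were that much higher and 5.55% that much lower. Intervals cover counting error only, and with 1 library a dose none of these differences has a replicate check.

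The lower doses of Aucklandiae Radix lay near the vehicle. EREG had 75.6 CPM at the low dose and 81.7 CPM at the medium dose, and CCN1 4.46 and 4.74 CPM. The steep part of the dose curve was thus between 74 and 370 µg/mL for all 4 ligands, EGFR and CCN1 in these libraries. Blood markers summed to 3.48 CPM and fibroblast markers to 4.12 CPM in the high dose library. Endothelium markers summed to 9.64 CPM, against at most 3.55 CPM elsewhere, of which PECAM1 made 8.83 CPM, while CDH5 and KDR were at 0. Of 10 colon epithelium markers, 1 was at least 2-fold higher than in the vehicle and 3 at least 2-fold lower. Over all genes these shares were 5.42% and 5.55%, and the median log2 ratio of the list was -0.0024. KRT20 had 716 CPM, against 240 ± 12.9 CPM in the vehicle (SD, n = 3), and GPA33 0.170, against 3.12 ± 0.689 CPM. The part of these differences in the member levels was not tested.

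Polygalae Radix at its high dose of 380 µg/mL moved fewer members. HBEGF had 17.6 CPM (1.81-fold), against 8.94 to 9.85 CPM in the vehicle, and stood 75th from the top by log2 ratio among the 16890 genes. TGFA had 95.1 CPM (1.33-fold), against 69.4 to 72.3 CPM. EREG had 110 CPM, against 80.9 to 107 CPM, and CCN2 3.90 CPM, against 4.83 to 5.16 CPM. At the low dose EREG and AREG were lower, at 73.7 and 38.5 CPM. No member was changed 2-fold at the high dose, where 0.995% of genes were. Colon epithelium markers summed to 8122 CPM in this library, against 11649 to 13694 CPM in the vehicle. KRT8 had 4358 CPM, against 7060 ± 691 CPM, and VIL1 53.2 CPM, against 164 ± 1.43 CPM (SD, n = 3). The part of this in the member levels was not tested.

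The wider pathways were described by gene lists. Of the other ERBB ligands and receptors, 5 of 10 genes passed the filter, and edgeR called none with Soshiho-tang at the high dose against the vehicle, with 1 at an unadjusted p under 0.05 and 0 called by DESeq2. Of 11 genes for ligand shedding and the first steps of signalling, edgeR called none, with 3 at an unadjusted p under 0.05, and DESeq2 called 1. Among 15 feedback inhibitors of EGFR signalling that passed the filter, of 16, 2 were called higher and 2 lower. Over all genes 4.17% were called higher and 3.76% lower in this comparison. DUSP5, a nuclear phosphatase that inactivates ERK, had 9.24 ± 1.53 CPM with Soshiho-tang and 4.49 ± 0.185 CPM in the vehicle (SD, n = 2 and 3; log2 difference 1.05 ± 0.13, adjusted p = 2.8e-07). ERRFI1, which binds the EGFR kinase domain and blocks it, was 0.27 ± 0.082 higher (0.029). SPRY1 and SPRY2, Sprouty inhibitors of the RAS cascade, were 0.34 ± 0.11 and 0.33 ± 0.077 lower (0.037 and 0.0036). Without both libraries that stood apart all 4 stayed called, with DUSP5 at 0.86, ERRFI1 at 0.27, SPRY1 at -0.32 and SPRY2 at -0.40. The medians in this comparison were 0.096 for the other ERBB genes, 0.10 for shedding and -0.021 for the feedback inhibitors. Between the high and low Soshiho-tang doses 6.29% of genes were called. There edgeR called 1 of 5 ERBB genes, 0 of 11 shedding genes and 4 of 15 feedback inhibitors. ERBB3 was 0.21 ± 0.062 lower (adjusted p = 0.031) and LRIG1 0.43 ± 0.13 lower (0.029). DUSP5 was 1.19 ± 0.15, ERRFI1 0.57 ± 0.091 and DUSP4 0.27 ± 0.068 higher (3.7e-07, 2.7e-05 and 0.0097). Without both libraries that stood apart these were -0.21, -0.39, 1.00, 0.56 and 0.19, in this order. In the Yijin-tang high dose, DUSP6, a cytoplasmic ERK phosphatase, was 0.31 ± 0.074 lower than in the vehicle (adjusted p = 0.026, where 1.05% of genes were called).

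On the Hippo side, 1 of 22 tested genes was called with Soshiho-tang at the high dose, and 1 of 14 tested YAP targets outside the 5 members. Both counts are near the 7.93% called over all genes. This was SAV1, the scaffold of the Hippo kinases, with 56.1 ± 0.765 CPM, against 39.3 ± 2.32 CPM in the vehicle (SD, n = 2 and 3; 0.51 ± 0.079, adjusted p = 1.0e-05). The YAP target was FJX1, a relative of the fly gene four-jointed, which was called higher (0.39 ± 0.13, adjusted p = 0.048), but DESeq2 called none of the 14. Between the high and low doses NUAK2, a kinase, was also called, 0.51 ± 0.13 lower (0.010), and FJX1 was 0.57 ± 0.14 higher (0.0080). Without both libraries that stood apart, SAV1 stayed called (0.49, adjusted p = 5.8e-05), and FJX1 did between doses (0.59, 0.019) but not against the vehicle (0.41, 0.073). NUAK2 was not called in that fit (-0.50, 0.058). Of 14 tested genes of actin and of SRF and MRTF targets, edgeR called none in either comparison. At an unadjusted p under 0.05 there were 1 against the vehicle and 2 between doses, and DESeq2 called 1 and 0. The medians in the comparison with the vehicle were -0.074 for the Hippo genes, 0.069 for the other YAP targets and -0.045 for the actin and SRF genes, against -0.00035 over all genes.

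At the Aucklandiae Radix high dose, in 1 library, 4 of 15 feedback inhibitors were at least 2-fold higher and 1, SPRY1, at least 2-fold lower, beside 5.42% and 5.55% over all genes. DUSP5 had 95.6 CPM, against 4.49 ± 0.185 CPM in the vehicle (SD, n = 3), and ERRFI1 582 CPM, against 94.4 ± 2.89 CPM. RHBDF2, a cofactor of the sheddase ADAM17, was the 1 gene of 11 in the shedding list past 2-fold, at 102 CPM, against 30.7 ± 2.61 CPM. ERBB3, a receptor that pairs with EGFR, had 80.7 CPM, against 215 ± 8.21 CPM. Of the other YAP targets 3 of 14 were at least 2-fold higher, namely MYOF, AXL and NT5E. Of the actin and SRF list 3 of 14 were, namely ACTG1, ZYX and FLNA, and of the Hippo list 2 of 22, SAV1 and MAP4K4, which is near the 5.42% of all genes. In the Polygalae Radix high dose, also 1 library, DUSP5 was the 1 feedback inhibitor of 15 past 2-fold, at 10.5 CPM. NT5E, FLNA and AMOT, which binds YAP, were at least 2-fold lower, each as the 1 gene of its list, of 14, 14 and 22 tested. Over all genes 0.261% were that much higher and 0.734% that much lower. NT5E, FLNA and AMOT had 52.3, 354 and 1.31 CPM, against 111 ± 5.63, 781 ± 86.2 and 3.46 ± 0.601 CPM in the vehicle (SD, n = 3).

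The members were also set beside all other protein coding genes by their pattern over the 25 group means of log2 CPM. These points share library sets and scaling, and 1 of them, the Aucklandiae Radix high dose, lies far out, so each Pearson r is given with and without it, a choice made after seeing the data. EREG was most like SOCS5 (r = 0.96, and 0.91 over the other 24 groups), followed by IRAK2 and NAMPT. TGFA was most like SMAD3 (0.99 and 0.95), HBEGF like TRIB1 (0.96 and 0.90) and AREG like COPS8 (0.94 and 0.82). EGFR was most like TEAD1 (0.98 and 0.97), the gene of a TEAD factor. With the 2 libraries that stood apart left out of their group means, EGFR and TEAD1 had an r of 0.97 over the 25 groups and 0.91 over the 24. CCN1 was most like PARD3, with an r of 0.96 that was 0.71 without the outlying group. CCN2 was most like CHST3 (0.84 and 0.86), AMOTL2 like CCSER2 (0.92 and 0.85), AJUBA like ZNF211 (0.70 and 0.70), and ANKRD1 like ECHDC1 (0.68 and 0.59). Over the 24 groups alone SOCS5 stayed closest to EREG and TRIB1 to HBEGF, but the closest gene changed for every other member. It was SLC7A1 for EGFR (0.97, with TEAD1 next), EFNB1 for TGFA (0.97), VAPA for AREG (0.88) and ACSS1 for CCN2 (0.92). For AMOTL2 it was ELF1 (0.90), for CCN1 ENSG00000256591 (0.84), for AJUBA ZNF30 (0.79) and for ANKRD1 PHF11 (0.71). Among the members, EREG followed AREG (0.92 and 0.78) and TGFA (0.93 and 0.82). EREG ran against CCN2 (-0.53, and -0.81 without the outlying group). CCN1 and CCN2 had an r of -0.10, and -0.21 without it. Without the 2 libraries that stood apart, EREG and AREG had an r of 0.95 (0.88 over the 24 groups), EREG and TGFA 0.92 (0.79), EREG and CCN2 -0.50 (-0.76), and CCN1 and CCN2 -0.080 (-0.15). Of the closest genes named over 25 groups, the r over the 24 groups without those libraries was 0.71 for AREG and COPS8, 0.76 for AMOTL2 and CCSER2, 0.79 for ANKRD1 and ECHDC1, and 0.67 for AJUBA and ZNF211. For the 5 other pairs it lay between 0.72 and 0.96.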

How the data were processed

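Per the labels' protocols, HT29 cells were lysed after 24 h and directional mRNA libraries were sequenced. Per the submitters' processing notes, the tools included RSEM 1.3.3, STAR 2.7.3a, FastQC 0.11.9 and Trim Galore 0.6.5, and the build was GRCh38. The annotation, and whether counting used strand, are not given in the sources used here. The authors deposited unnormalized expected counts for each gene in each library, of which 89.9% of values lay within 1e-09 of a whole number. RSEM splits reads that match several genes, which makes overlapping genes less certain. The wortmannin control named in the series description was not analysed here.

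Expected counts were rounded. The function filterByExpr in edgeR 4.0.16 (R 4.3.3) left 16890 genes, which were scaled by TMM and fitted in 1 quasi-likelihood model of the 54 libraries in 19 groups with 2 or 3 libraries, with no covariate. From it came 27 comparisons and 3 differences between dose contrasts. Adjusted p-values are Benjamini-Hochberg over all genes, called under 0.05, and intervals of fold changes are approximate 95% intervals. The labels do not say that libraries came from separate cultures, so p-values measure only the spread between these libraries. Polygalae Radix and Aucklandiae Radix, with 1 library a dose, were given as ratios of CPM + 0.5 to the vehicle mean, called at 2-fold. Alternatives were DESeq2 1.42.0, RLE scaling, no filter, only the groups compared, the replicate number as a block, other pseudocounts, each library left out, and a fit without the 2 libraries that stood apart. Group means and list genes without those 2 libraries were added after seeing the data. Besides the members, the text names up to 4 called genes of each gene list, by size of change, and the genes closest to each member in pattern among those with a mean of at least 1 CPM. List genes named for the single libraries were chosen after their values were seen. The members and lists were chosen with earlier results of these data known. In data simulated for Soshiho-tang high dose against vehicle over 16890 genes, the share of changed genes that was recovered was 75.6% at 1.5-fold, 94.4% at 2-fold and 100% at 4-fold, with 5.35% of calls false. The simulation gave every gene the same coefficient of variation of 9.7% and changed only genes above 1 CPM. It held no library that stood apart and no effect of a library set. The shares describe that setting and need not hold for the real libraries. Symbols came from 56558 of 60675 IDs, and promoter windows from RefSeq (GRCh38.p14).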

Additional observations from a re-analysis of the deposited data

Results flagged for a closer look

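These 5 results stand out because a test of the difference itself separated 2 extracts. At the high dose, Yijin-tang was lower than Soshiho-tang for EREG (-0.88 on the log2 scale, adjusted p = 1.6e-09), AREG (-0.62, 0.028) and TGFA (-0.42, 0.0019). The change between the high and low doses also differed, as Yijin-tang minus Soshiho-tang, for EREG (-0.65, adjusted p = 0.0017) and AREG (-1.09, 0.0087). Both of these calls were lost in a fit of the 4 groups alone (0.80 and 0.85), and without Yijin-tang low dose replicate 2 the AREG value was -0.54. The AREG call at the high dose was lost when any of 4 of the 5 libraries was left out, and the TGFA call without Soshiho-tang replicate 3. Both extracts belong to 1 library set. EREG was lower in all 3 Yijin-tang libraries than in both Soshiho-tang libraries at the high dose. No group of 4 or more libraries exists here, so single libraries could not be tested for standing apart within a group.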

How the results depend on the processing

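With RLE scaling no count of called members moved. The fit without the 2 libraries that stood apart was chosen with earlier results known. Against the vehicle at the high dose it called 1 member each for Yijin-tang, Liriopis and Zizyphi Semen, against 0 with all libraries. Calls over all genes rose there too, to 7.46%, 5.06% and 3.25%, against 1.05%, 0.450% and 0.160%. Over the 12 medium and low doses 9 members were called in that fit, against 1. The share of all genes called in each of the 12 ran from 0.805% to 6.55%, against 0.0118% to 12.1% with all libraries. The Soshiho-tang high dose kept 1 library in that fit, and its differences are given above. Between high and low dose, that fit called 1 member for Yijin-tang and 1 for Longan Arillus, against 3 and 0. The shares over all genes were 0.675% and 5.70%, against 21.0% and 0.0178%. For the difference between the dose contrasts of Longan Arillus and Zizyphi Semen it called 1, against 0, where 1.26% of genes were called, against 0. In a fit of each comparison's own groups, Yijin-tang high against low dose had 0 calls, Soshiho-tang 3, against 5, and the difference between the decoctions 0, against 2. Fewer libraries then set the spread. For fits other than the main one and that without the 2 libraries, the share of all genes called is not given. A change in member counts there cannot be set beside one over all genes. The medium and low doses had 2 calls without a filter and 2 with DESeq2. At the high dose against the vehicle, over the 6 extracts, members had 2 calls higher in the main fit. They had 3 without a filter, 3 with the replicate number as a block and 3 in fits of only the groups compared. Signs turned in the fit without the 2 libraries for AREG at the Yijin-tang low dose against vehicle (-0.36, against 0.20), AREG and AMOTL2 between Yijin-tang doses (0.22 and -0.030, against -0.34 and 0.16), and EGFR in the difference between the decoctions (-0.37, against 0.16). Leaving out Yijin-tang low dose replicate 2 alone turned the same 4 signs. With each library left out in turn, they ran from -0.36 to 0.44, from -0.57 to 0.22, from -0.030 to 0.30 and from -0.24 to 0.43, in the same order. The calls then ran from 1 to 5 for Yijin-tang high against low dose, from 2 to 4 for Soshiho-tang high against low dose, from 1 to 4 between the decoctions at the high dose and from 1 to 3 for their dose contrasts. In 0 of 27 comparisons was the correlation of every pair of same-numbered libraries over 0.1. The highest pair reached 0.22 for Schisandrae Fructus at the medium dose against the vehicle. A pairing was thus not shown, but this rule cannot show that there is none. With the replicate number as a block HBEGF was called lower with Yijin-tang than with Soshiho-tang at the high dose (-0.41, adjusted p = 0.0053), Yijin-tang high dose against vehicle had 1 call, against 0, and the 12 medium and low doses 2, against 1. Between 1 and 13 counts a library limit ANKRD1. The cause of these changes was not tested.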
